A study of Mus musculus with 6 samples.

Results

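Neutrophil marker genes were followed in the livers of 23-month-old mice with and without Itpr2, which encodes an inositol trisphosphate receptor, a calcium channel of the endoplasmic reticulum. The 10 genes were taken from a fixed list of symbols, namely S100a8, S100a9, Ngp, Camp, Ltf, Mmp8, Mmp9, Retnlg, Cxcr2 and Csf3r, and each had at least 1 probe on the array. Of these, 9 were among the 17991 genes that entered the comparison of genotypes, and Mmp9 was too dim to enter. Liver RNA of 3 wild-type mice (WT 1 to WT 3) and 3 Itpr2 knockout mice (KO 1 to KO 3), all C57Bl/6, was hybridised to 1-colour Agilent arrays. The mice came from a survival cohort under specific pathogen-free housing with a standard diet and no treatment, and per the series design they were independent animals. The sources used here do not say how the Itpr2 allele was made. Itpr2 itself had levels of 3.04, 3.07 and 3.08 on the wild-type arrays and of 2.54, 2.38 and 2.20 on the knockout arrays, with no overlap and a log2 change of -0.69 ± 0.13 (SE; limma adjusted p 0.811). Whether its probe lies in the deleted part is not known here. In the authors' deposited matrix the columns of KO 2 and KO 3 each held the values of the other's scanner table, so the names KO 2 and KO 3 follow the scanner tables, which leaves the genotypes as they are.

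Neutrophils are short-lived white blood cells that are made in bone marrow and reach the liver through the blood. While they mature they fill granules in a fixed order: primary granules with myeloperoxidase and serine proteases, secondary granules with lactoferrin and cathelicidin, and later gelatinase granules. Genes for granule proteins are switched on in the dividing and early non-dividing precursors and largely switched off afterwards, while receptors for chemokines and growth factors are typical of the mature cell. A liver sample can hold neutrophils in its vessels, neutrophils in the tissue, and, where blood formation takes place outside the marrow, their precursors. In whole-tissue RNA, fewer cells of a type and less RNA per cell cannot be told apart.

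The genes were ordered by stage. The granule precursor genes are Ngp, Camp, Ltf and Mmp8, the mature genes are Mmp9, Retnlg, Cxcr2 and Csf3r, and the calgranulin genes S100a8 and S100a9, active at both stages, were kept apart. Ngp, Camp, Ltf and Mmp8 all lie on chromosome 9 in the RefSeq gene table. Transcription factors of the C/EBP family, C/EBP epsilon among them, and the ETS factor PU.1 are known regulators of granulocyte genes. The 250 bases before the start of 3 granule genes and of the chemokine receptor gene Cxcr2 are shown to set granule genes that varied widely between the livers beside a mature gene that varied less. They come from RefSeq, build GRCm38.p6, and run 5′ to 3′ on the gene's own strand, which is plus for Ngp (chr9:110419558-110419807), Ltf (chr9:111019042-111019291) and Cxcr2 (chr1:74153744-74153993) and minus for Camp (chr9:109849457-109849706). Capitals mark each match to the C/EBP core letters TTNNGNAA on either strand (TTNCNNAA when read on the other).
Ngp: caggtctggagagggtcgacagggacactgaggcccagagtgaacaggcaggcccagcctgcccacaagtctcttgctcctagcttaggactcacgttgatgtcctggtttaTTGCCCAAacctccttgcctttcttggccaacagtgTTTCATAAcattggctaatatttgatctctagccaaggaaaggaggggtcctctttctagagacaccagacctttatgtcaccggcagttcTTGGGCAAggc
Ltf: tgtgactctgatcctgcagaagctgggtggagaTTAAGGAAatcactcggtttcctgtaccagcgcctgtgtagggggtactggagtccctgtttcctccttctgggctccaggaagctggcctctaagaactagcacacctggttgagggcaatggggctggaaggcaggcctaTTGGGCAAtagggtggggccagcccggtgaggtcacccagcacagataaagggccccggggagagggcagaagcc
Camp: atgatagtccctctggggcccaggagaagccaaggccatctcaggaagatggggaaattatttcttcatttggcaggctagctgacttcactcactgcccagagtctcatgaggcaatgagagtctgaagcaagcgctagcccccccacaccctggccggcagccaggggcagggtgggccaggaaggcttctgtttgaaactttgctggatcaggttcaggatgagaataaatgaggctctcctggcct
Cxcr2: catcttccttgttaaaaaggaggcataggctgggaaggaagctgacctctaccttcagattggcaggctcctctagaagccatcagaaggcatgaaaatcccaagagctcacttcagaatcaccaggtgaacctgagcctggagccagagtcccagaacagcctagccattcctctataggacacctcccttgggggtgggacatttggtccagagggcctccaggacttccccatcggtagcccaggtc
The Ngp window held 3 matches, the Ltf window 2, and the Camp and Cxcr2 windows 0. Among the 9 members with a promoter in the table, 6 held the C/EBP letters, where 36.8% of 32851 promoter windows of the same length did. The letters GAGGAAG of the PU.1 site (CTTCCTC on the other strand) were in 3 of the 9 windows, those of S100a8, Mmp8 and Csf3r, and in 10.6% of all windows. A match describes letters only.

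Each level below is the log2 signal of a probe minus the 75th percentile of its array, so that a step of 1 is a 2-fold difference, and levels of different probes are not compared with each other. S100a8 and S100a9 encode the calcium-binding proteins that together form calprotectin, the most abundant protein of the neutrophil cytosol. S100a8 had levels of 1.46, 0.71 and 1.51 on WT 1, WT 2 and WT 3 and of 3.61, 0.01 and 2.70 on KO 1, KO 2 and KO 3. KO 1 and KO 3 lay above all wild-type livers and KO 2 below all of them, so the genotypes overlapped. S100a9 had levels of 3.31, 2.64 and 3.42 in wild type and 5.30, 2.13 and 4.81 in the knockout, with the same order of the knockout livers. The S100a8 level on KO 1 was 12.1-fold that on KO 2, and for S100a9 the ratio was 9.01-fold.

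All 4 granule precursor genes had KO 1 highest, KO 3 next and KO 2 lowest. Ngp encodes neutrophilic granule protein, a secreted protein of the cystatin and cathelin group. Its level was -3.85, -3.80 and -2.64 in wild type and -0.52, -7.55 and -1.76 in the knockout. The Ngp signal on KO 2 was not well above background. The Ngp level on KO 1 was 35.3-fold the lowest level of any probe well above background on KO 2. Camp encodes the mouse cathelicidin, an antimicrobial peptide stored in secondary granules. Camp had levels of -0.85, -0.66 and 0.29 in wild type and 2.09, -2.22 and 1.15 in the knockout. No array was near background for Camp, and KO 1 had 19.7 times the signal of KO 2. A second Camp probe gave the same order of the knockout livers, with 0.98, -4.16 and 0.01.

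Ltf encodes lactoferrin, the iron-binding protein that marks secondary granules. Ltf had levels of -3.28, -3.02 and -2.04 in wild type and 0.23, -5.24 and -0.97 in the knockout. KO 2 was not well above background for Ltf, and KO 1 had 44.2-fold the signal measured there. Mmp8, neutrophil collagenase, is a secondary granule enzyme that cleaves fibrillar collagen. Mmp8 had levels of -4.56, -4.89 and -4.07 in wild type and -2.16, -6.11 and -3.08 in the knockout, again with KO 2 not well above background. On KO 1 the Mmp8 level was 11.3-fold the lowest level of any probe well above background on KO 2. For all 4 granule genes the wild-type livers lay between the knockout livers, and WT 3 was the highest of the 3 wild-type livers.

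The mature genes varied less and did not share a single order. Retnlg encodes resistin-like gamma, a secreted protein of mature neutrophils. Retnlg had levels of -1.88, -3.07 and -1.57 in wild type and -0.37, -2.45 and -0.98 in the knockout. KO 1 and KO 3 were again highest, but WT 2 and not KO 2 was lowest. Cxcr2 encodes the receptor through which neutrophils follow CXC chemokines. Cxcr2 had levels of -3.80, -4.59 and -4.35 in wild type and -3.09, -4.80 and -4.43 in the knockout. Only KO 1 lay above all wild-type livers for Cxcr2, and KO 3 lay among them. Cxcr2 was well above background on all 6 arrays but dim, which limits how low it could be read. On KO 2 the lowest level of any probe well above background was -5.66.

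Csf3r encodes the receptor for granulocyte colony-stimulating factor, the main growth factor of neutrophils. Csf3r had levels of 5.49, 5.31 and 5.38 in wild type and 5.67, 5.26 and 5.64 in the knockout. The knockout livers stood in the same order as for the granule genes, over a range of only 0.41. That order appeared only after scaling. The unscaled Csf3r signal was lower on KO 3, at 12634.7, than on KO 2, at 13096.5. In the RefSeq gene table another gene model, Gm32908, overlaps Csf3r (and Gm31751 overlaps Mmp8), and whether the probes can tell these apart is not known here. Mmp9 encodes gelatinase B, the enzyme of gelatinase granules, and was measured by 10 spots on each array. On KO 1 all 10 spots were well above background, on WT 1 and WT 3 6 of 10 each, on KO 2 2 of 10, on KO 3 3 of 8 kept and on WT 2 0 of 9 kept. Its level was -5.44, -6.13 and -5.25 in wild type and -4.26, -6.19 and -5.29 in the knockout, so for Mmp9 too KO 1 was the highest liver.

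**Figure D1:**
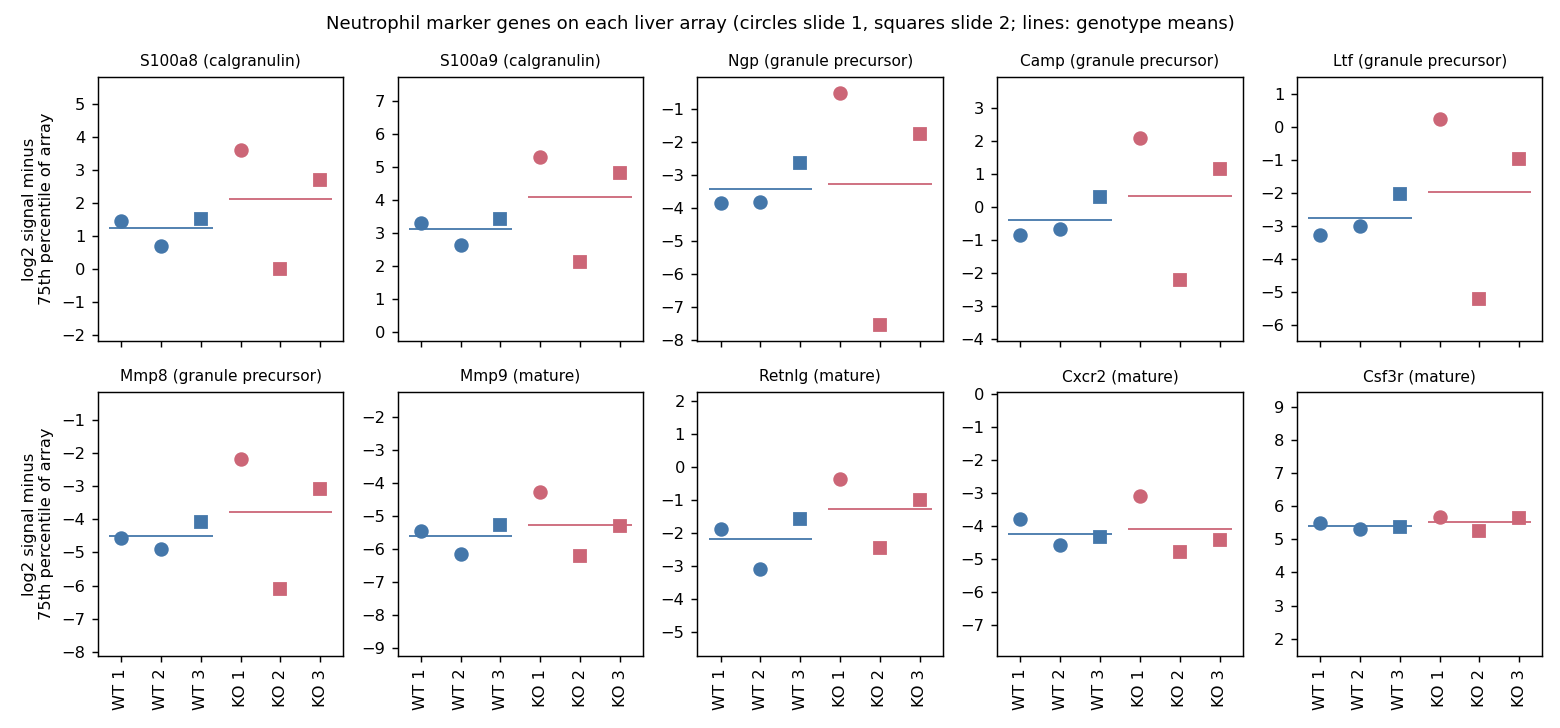
Level of each of the 10 genes (y axis, log2 signal minus the 75th percentile of the array, every panel spanning 8 units) on the 6 arrays (x axis), with wild type in blue, knockout in red, circles for slide 1, squares for slide 2 and lines at the genotype means. In the panels of S100a8, S100a9, Ngp, Camp, Ltf and Mmp8, KO 1 and KO 3 sit above and KO 2 below all wild-type points, while the Csf3r points span 0.41.

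The knockout livers thus spanned more than the wild-type livers for every member, in both stages. How many of all genes did so was not counted, so this is not shown to be particular to the members. Some markers of other cells did so too, such as Alb (SD 0.087 in wild type and 0.30 in the knockout) and Epor (0.062 and 0.32). Tat did not (0.30 and 0.20). For Ngp the SD was 0.69 over the 3 wild-type livers and 3.76 over the 3 knockout livers (the latter with KO 2 near background), and for Camp it was 0.61 and 2.26. For S100a9 the SD was 0.42 in wild type and 1.71 in the knockout, and for Retnlg 0.79 and 1.07. The SD within genotypes from the fit over both groups was 2.70 for Ngp, 2.08 for Ltf, 1.66 for Camp and 1.49 for Mmp8, against a median of 0.23 over all genes fitted. With the dim KO 2 signals of Ngp and Mmp8 raised to the floor the SD was 1.96 and 1.31. S100a8 had 1.36, S100a9 1.24, Retnlg 0.94, Cxcr2 0.70 and Csf3r 0.17. Of the 9 members, 7 lay above 0.76, the 95th percentile of all genes. Csf3r stood at percentile 32.4 and Cxcr2 at 93.8.

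**Figure D2:**
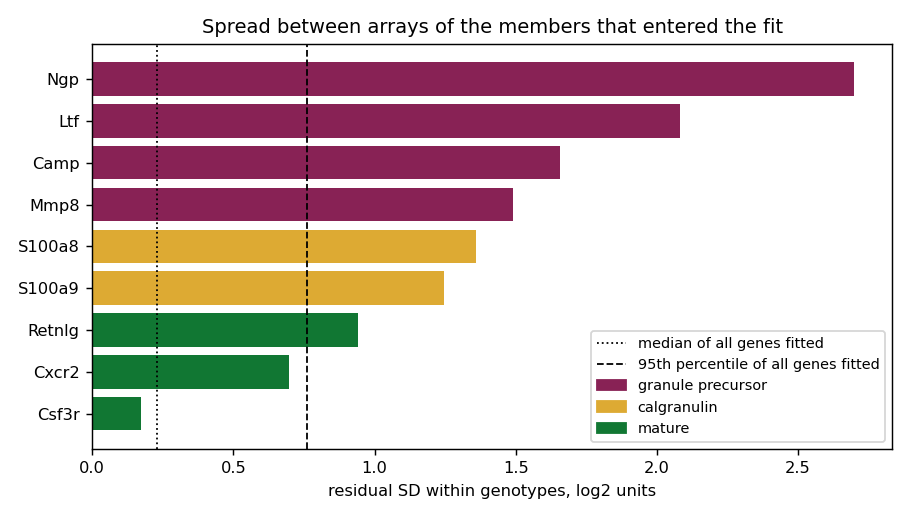
Residual SD within genotypes in log2 units (x axis) for the 9 members that entered the fit, coloured by stage, with the median (0.23) and the 95th percentile (0.76) of all 17991 genes as vertical lines. Ngp, Ltf, Camp and Mmp8 have the longest bars (Mmp8, at 1.49 as plotted, would lie below S100a8 with its dim KO 2 signal at the floor) and Csf3r, at 0.17, the shortest.

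KO 1 had the highest of the 6 levels for 9 of 9 fitted members, where 16.9% of all genes did, and KO 2 the lowest for 8 of 9, where 17.1% of all genes did. The full order, with KO 1 and KO 3 above and KO 2 below every wild-type liver, held for 7 of 9 members and for 1.95% of all genes. That order was chosen after the levels were seen. The 7 members were the calgranulins, the 4 granule precursor genes and Csf3r, the last only after scaling.

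The stages were set side by side by centring each gene on its own mean over the 6 livers and averaging over the genes of a stage. The centred granule precursor genes stood at 2.39 on KO 1, 1.31 on KO 3 and -2.80 on KO 2, and at -0.65, -0.61 and 0.36 on WT 1, WT 2 and WT 3. The centred mature genes stood at 0.88, 0.22 and -0.52 on the same knockout livers and at 0.083, -0.64 and -0.033 in wild type. The difference between the stages, granule precursor minus mature, was 1.51 on KO 1, 1.09 on KO 3 and -2.28 on KO 2. In wild type it was -0.74 on WT 1, 0.024 on WT 2 and 0.40 on WT 3. The KO 2 values rest on Ngp, Ltf and Mmp8 signals not well above background. With those at their floor the granule precursor genes stood at -2.31 on KO 2, and the difference was -1.79 on KO 2, 1.41 on KO 1 and 0.99 on KO 3. No test was made on these averages, and Csf3r, which hardly varied, is 1 of the 3 mature genes in them. Cxcr2, which was dim, is another.

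**Figure D3:**
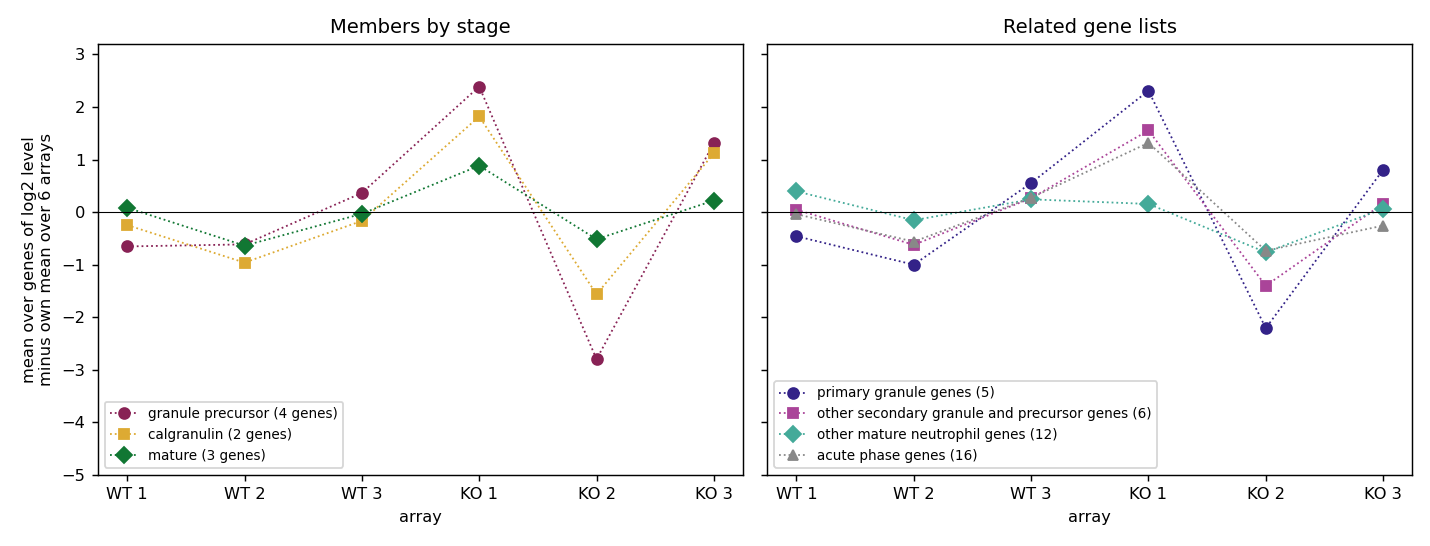
Mean over genes of the centred log2 level (y axis) on each of the 6 arrays (x axis), for the members by stage (left) and for 4 related gene lists (right); dotted lines only join the points of a group. Granule precursor genes run from -2.80 on KO 2 (where 3 of the 4 were near background) to 2.39 on KO 1, mature members from -0.64 on WT 2 to 0.88 on KO 1.

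The comparison of genotypes asked how liver expression of these genes differed without Itpr2. The mean was higher in the knockout for 9 of 9 fitted members, and for 54.1% of all genes, with a median log2 change of 0.75 where all genes had 0.022. None of the 9 passed the threshold of 0.05 by limma after Benjamini-Hochberg adjustment (adjusted p between 0.833 and 0.994), and 0 had an unadjusted p under 0.05. Over all genes 1 of 17991 passed, or 0.00556%, and that gene, Mansc4, is not a member. An unadjusted p under 0.05 was found for 3.46% of genes in the higher and 2.66% in the lower direction. The genotypes overlapped for all 9 members, where 6.9% of genes had all knockout livers above and 5.15% all knockout livers below wild type.

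Single changes were smaller than the spread between livers. S100a9 had a log2 change of 0.96 ± 0.81 (SE, 3 against 3 mice), Retnlg 0.90 ± 0.61 and S100a8 0.88 ± 0.88. Among granule genes Ltf had 0.79 ± 1.34, Camp 0.75 ± 1.07, Mmp8 0.72 ± 0.96 and Ngp 0.15 ± 1.74. Cxcr2 had 0.14 ± 0.46 and Csf3r 0.13 ± 0.16. Exact two-sided permutation over the splits of the 6 livers gave p between 0.3 (Retnlg) and 1 (Ngp), and 3 against 3 cannot give less than 0.1. The Ngp change depended on its dim signal on KO 2: with dim signals raised to the lowest level well above background of the array it was 0.79.

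The medians depended on which knockout liver was left out. Without KO 2 the median of the members was 1.93, without KO 1 it was -0.091, and without KO 3 0.34. For the granule precursor genes the median was 0.73, and 2.16 without KO 2 and -0.22 without KO 1. For the mature genes it was 0.14, with 0.49 and 0.057 under the same omissions. None of the members passed the threshold under any omission.

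The arrays were on 2 slides that held both genotypes, slide 1 with WT 1, WT 2 and KO 1, and slide 2 with WT 3, KO 2 and KO 3. All 9 fitted members were higher in the knockout within slide 1, where KO 1 is the only knockout liver, with a median of 2.52. Within slide 2, where WT 3 is the only wild-type liver, 7 of 9 were lower, with a median of -0.26. The granule precursor medians were 3.08 and -0.94 on slides 1 and 2, and the mature medians 1.11 and -0.15. With the slide as a block the median of all members was 1.01 and no member passed (smallest adjusted p by limma 0.951). KO 2 and KO 3 shared slide 2 and were the lowest and the second highest liver for the granule genes, 10.3-fold apart for Camp.

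**Figure D4:**
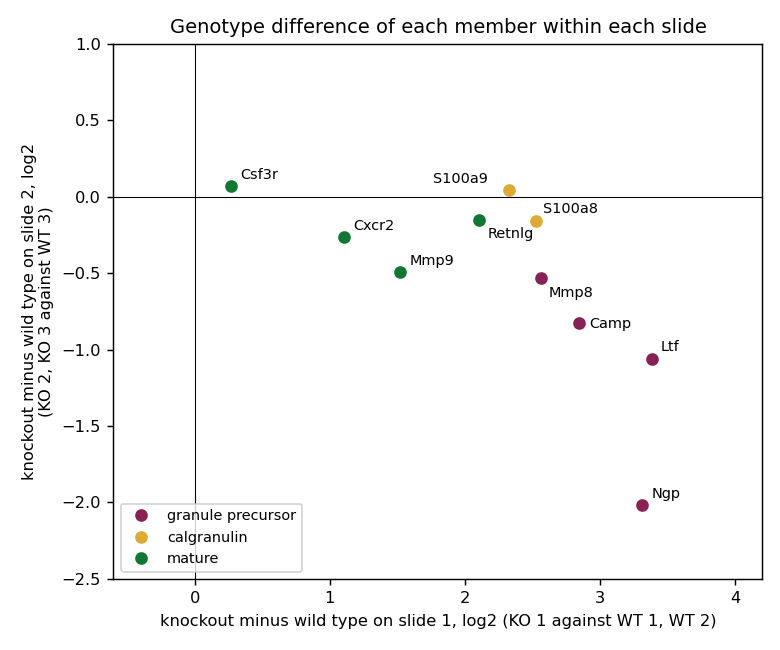
Knockout minus wild type in log2 units for each of the 10 genes within slide 1 (x axis, KO 1 against WT 1 and WT 2) and within slide 2 (y axis, KO 2 and KO 3 against WT 3), coloured by stage. All genes lie to the right of 0 on slide 1, and Ngp lies at 3.31 and -2.02, or at -1.07 on slide 2 with its dim KO 2 signal raised to the floor.

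Other neutrophil genes, from lists of known genes, were read beside the members. Of the primary granule genes, which are switched on earliest, 4 of 5 fitted had a higher mean in the knockout, with a median of 0.61, and none passed. Mpo, myeloperoxidase, had levels of -2.00, -2.29 and -0.92 in wild type and 1.64, -4.91 and -0.09 in the knockout. Prtn3, proteinase 3, had levels of -3.79, -5.37 and -1.01 in wild type and 2.00, -6.50 and -1.43 in the knockout. Here KO 1 was again highest and KO 2 lowest, but WT 3 lay above KO 3. Ctsg, cathepsin G, ran from -6.49 on KO 2 to -0.01 on KO 1, with KO 3 next highest at -1.83. Elane, neutrophil elastase, ran from -1.48 on WT 2 to -0.05 on KO 1. The KO 2 signals of Prtn3 and Ctsg were not well above background. Ms4a3, a marker of early granulocyte and monocyte precursors, was well above background on KO 1 and KO 3 and on 0 of 3 wild-type arrays, with a level of -1.90 on KO 1. Prss57, a serine protease of primary granules, went the other way, with a log2 change of -0.42 ± 0.17 (SE) and KO 1 lowest. All its knockout levels lay below wild type, as for 5.15% of all genes, with an unadjusted p of 0.043 by limma (adjusted 0.811).

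Among 13 other secondary granule and precursor genes 6 entered the fit, and all 6 had a higher mean in the knockout, with a median of 0.17. Chil3, a chitinase-like protein of neutrophil precursors and macrophages, had -0.28, -1.01 and 0.29 in wild type and 1.87, -2.11 and 0.65 in the knockout, the full order of the members. The stefin genes Stfa2 and Stfa2l1, close copies that one probe may not tell apart, were highest on KO 1 and lowest on KO 2. Among the dim genes of the list, Cd177, Fcnb and Itgb2l were well above background on KO 1 alone. Stfa1 was so on 1 knockout array, with its highest level, -3.62, on KO 3, and Stfa3 on 2, with -4.95 on KO 1 and -4.43 on KO 3. Lcn2, a secondary granule protein that hepatocytes also make, had 3.69, 2.84 and 5.34 in wild type and 7.87, 1.43 and 2.84 in the knockout. Pglyrp1 and Wfdc21 were highest on KO 3, with -2.56 and 6.98.

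The other mature neutrophil genes stood differently. Of 12 fitted, 11 were lower on average in the knockout (median -0.25). KO 1 was highest for 2 of the 12 while KO 2 was lowest for 9, with Trem1, which lacks a KO 2 level, in neither count. The formyl peptide receptor genes Fpr1 and Fpr2 both had log2 changes of -0.80, with SE of 0.40 and 0.53, and WT 1 was highest for each. Clec4d, Clec4e, Il1b, Hcar2, Ptafr, Siglece, Mxd1, Hdc and Trem1 had changes from -0.58 for Clec4e to -0.02 for Trem1, with the KO 2 spot of Trem1 left out as an outlier. Il1r2, the decoy interleukin-1 receptor, did not enter the fit, with levels of -3.09 and -3.62 on KO 1 and KO 3 and at most -5.06 on the other arrays. Asprv1 stood at -1.53 on KO 3 and at most -5.26 elsewhere. None of these lists had a member past the adjusted threshold (limma adjusted p of at least 0.811 over the 52 fitted genes of the 8 related lists). Macrophages express several of these genes as well, Fpr1, Clec4e and Il1b among them.

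Genes that act on neutrophils were read in the same way. In the list of ligands 5 of 11 entered the fit. Cxcl1, a chemokine that binds Cxcr2, had 0.26, -0.68 and 0.91 in wild type and 3.29, -0.61 and -0.19 in the knockout, high on KO 1 alone. Cxcl5, another Cxcr2 ligand, was lowest on KO 1 at -5.76, with a log2 change of -1.08 ± 0.61 (SE). Ccl3, Tnf and Il1a, inflammatory mediators, had changes of -1.55 ± 0.39, -1.02 ± 0.33 and -0.60 ± 0.23, with unadjusted p under 0.05 and no adjusted pass. The Tnf signal was well above background on 1 of 3 knockout arrays. Cxcl2, Cxcl3, Csf3, Csf2 and Il17a stayed near background in all 6 livers, so no level of the Csf3r ligand Csf3 could be set beside the members.

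The transcription factor genes of granulocytes did not share the order of the granule genes. Cebpe had 1.38, 1.46 and 1.65 in wild type and 1.86, 1.83 and 0.97 in the knockout, lowest on KO 3. Cebpd and Cebpb, which hepatocytes also express, were highest on KO 1 at 3.70 and 4.87. Gfi1 was lowest on KO 2 at -4.64, and Spi1, which encodes PU.1, had a change of -0.66 ± 0.26 (SE). All knockout levels of Spi1 lay below wild type, with an unadjusted p of 0.039 by limma (adjusted 0.811). Of the 7 fitted, 3 had a higher mean and the median change was -0.30. Cebpa and Runx1 had changes of -0.30 and -0.33.

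Adhesion genes and partner receptors had a median change of -0.26 over 9 fitted genes. Cxcr1, the other receptor for CXC chemokines of this group, was well above background on KO 1 alone, at -4.69. Cxcr4, which holds neutrophils in the marrow, ran from -5.39 on KO 2 to -2.87 on KO 3, and its ligand Cxcl12 from 5.30 to 5.62. The integrin chain Itgb2 and the Fc receptor Fcgr4 had changes of -0.63 ± 0.23 and -0.73 ± 0.28 (SE). Their unadjusted p by limma was 0.034 and 0.039 (adjusted 0.811 for each), and the genotypes did not overlap for Itgb2. Itgam, Icam1, Selp, Tlr4 and Fcgr3 had changes between -0.35 and 0.21, and Sele was near background throughout. All 5 fitted subunits of the NADPH oxidase, which neutrophils share with macrophages, were lower on average in the knockout, by a median of -0.42, and KO 2 was lowest for each (Cybb, Cyba, Ncf1, Ncf4 and Rac2). The metalloproteinase inhibitor genes Timp1, Timp2 and Timp3 had changes of -0.84, 0.05 and -0.14, and Timp4 was well above background on 1 wild-type and 1 knockout array.

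Acute phase genes, made by hepatocytes, and markers of other cells moved with some of these levels, and their part in them was not tested. KO 1 was highest for 10 of 16 acute phase genes. Orm1, without a WT 1 level, was not counted among the 10, though KO 1, at 6.84, was the highest of its measured arrays. The brightest genes of the list, Hpx, Fgg and Fgb, had log2 changes of 0.24, 0.24 and 0.21 (median of the list 0.19). Saa1 stood at 8.21 on KO 1, 4.89 on KO 3, 3.64 on KO 2 and 5.29 to 5.99 in wild type. KO 3, high for the granule genes, lay below all wild-type livers for 4 of 16 acute phase genes and above all of them for 7 of 16. The 4 were Saa1, Saa2, Orm3 and Lcn2, the last by little, with KO 3 and WT 2 both at 2.84. KO 3 was the highest of the 6 livers for 5, namely Hp (8.37), Hpx, Fgb, Fgg and Itih4. The centred acute phase genes stood at 1.32 on KO 1, -0.26 on KO 3 and -0.74 on KO 2. Cell cycle genes had 6 of 7 lower means, with Mki67 at -1.14 on KO 1, -1.44 on KO 2 and 0.03 on KO 3.

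Summed signals of marker lists, in multiples of the 75th percentile, gave the other cells. The 10 fitted monocyte markers summed to 115 to 144 in wild type and 126 to 156 in the knockout, with 6 lower means, changes of 0.17, -0.37 and -0.23 for the brightest, Fn1, Plac8 and Lyz1, and a median of -0.28. Fn1, which hepatocytes also make, held most of these sums, and the other 9 markers summed to 15.7 to 23.6 in wild type and 10.9 to 19.3 in the knockout. The 12 Kupffer cell markers summed to 192 to 350 and 151 to 194, all 12 with a lower mean, a median of -0.53, and changes of -0.72, -0.51 and -0.47 for Cd5l, Csf1r and Vsig4. The 13 T and NK cell markers were lowest on KO 1 and KO 2, with sums of 9.03 and 11.3 against 14.7 to 30.0 in wild type and 27.5 on KO 3. For 5 fitted markers of eosinophils, basophils and mast cells the sums were 4.98 to 6.35 and 3.12 to 4.23. Ear2 held most of these sums, and the other 4 markers summed to 0.87 to 1.54 in wild type and 0.60 to 1.07 in the knockout. Of the 5, 3 had a lower and 2 a higher mean in the knockout. The eosinophil peroxidase gene Epx, not fitted, was well above background on KO 1 alone. Erythroid markers (9 fitted) summed to 283 to 376 and 300 to 500, platelet markers (7) to 2.00 to 2.77 and 1.68 to 7.53, and B and plasma cell markers (9) to 1.52 to 7.66 and 3.79 to 19.2, each with KO 3 highest. The platelet sum on KO 3 was mostly Pf4, and the other 6 markers summed to 0.59 to 1.11 in wild type and 0.45 to 1.18 in the knockout. Endothelial (11), stellate (10) and hepatocyte (9) markers summed to 60.4 to 72.1, 108 to 121 and 1264 to 1429 in wild type and to 54.6 to 85.4, 111 to 120 and 1284 to 1836 in the knockout.

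WT 1 and KO 3 also carried striated muscle transcripts, with the actin gene Acta1 at 3.90 and 4.05 where the other 4 arrays had -5.42 to -4.93. The 5 fitted muscle markers summed to 51.6 on WT 1, 55.1 on KO 3 and 0.45 to 0.65 on the others. Fat cell markers (3 fitted) summed to 2.47 to 6.54 in wild type and 3.27 to 26.0 in the knockout, highest on KO 3. WT 1 was not high for the granule genes. Without WT 1 and KO 3 the median of the members was 0.34, with 0.074 for granule precursor and 0.53 for mature genes, and the changes were -0.81 for Ngp and 0.030 for Ltf.

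The genes with the profile nearest to the mean of the 10 members over the 6 livers, by root mean square distance between centred levels, are given as a description. Chil3 was nearest, at 0.23, then Mrgpra2a and Mrgpra2b, related receptors of the Mrgpr family that one probe may not tell apart, at 0.26 and 0.27. C8a, a complement component made by hepatocytes, followed at 0.33, with levels of 2.46, 1.93 and 3.37 in wild type and 5.17, 0.91 and 3.66 in the knockout. The others, at 0.34 to 0.36, were 1810053B23Rik, Oscar, F13a1, Stfa2, Psat1 and Miox. Over all other genes with a symbol the median distance was 1.11. KO 1 was highest for 9 of these 10 genes, which the choice of nearest genes largely fixes.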

How the data were processed

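Cy3-labelled cRNA of frozen liver was read on 1-colour Agilent arrays. Per the file headers the deposited intensity values came from Feature Extraction 11.5.1.1 (10.7.3.1 in the submitters' processing notes), with background subtracted and no scaling across arrays. A deposited table of log2 values for 20644 probes served only as an alternative. Its columns for KO 2 and KO 3 matched the scanner values of KO 3 and KO 2, so arrays are named here by the scanner tables. It matched those values with higher numbers for more signal after each probe was centred on its median, its scale between arrays is not stated, and its column medians were 0.0021, -0.0094, 0.0050, -0.013, 0.011 and 0.0062.

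The processed intensity was put on a log2 scale and the 75th percentile of each array subtracted. That percentile was a signal of 253 on KO 3 and of 332 to 356 on the other arrays. Control spots (1377 of 44397) and 818 outlier spots over the 6 arrays were left out, and spots of a probe were averaged. Between 57.5% and 59.5% of probes were well above background, and 0 spots were saturated. Precision is limited by the number of arrays. Of 39429 probes, 28330 were given 1 symbol through accessions in the RefSeq table of GRCm38.p6, 0 had several and 11099 had none. Probes entered if, in all 3 mice of a genotype, a share of at least 0.5 of their spots was well above background (22297 probes), and the brightest probe stood for its gene. Genotypes were compared with limma 3.58.1 in R 4.3.3, two-sided, with Benjamini-Hochberg adjustment over all genes. Folds against a liver where a probe was dim were taken against whichever is higher there: the probe's signal, or that of the dimmest probe still well above background. They are not strict lower bounds. On KO 2 that dimmest probe stood at -5.66, and Ltf, at -5.24, was above it and yet not well above background. On simulated data with the spread of 17881 genes this comparison recovered 0% of log2 changes of 0.5, 16% of 1, 72% of 2 and 92% of 3. These shares are over all genes and do not give the recovery at the members' spread. Of the 9 members, 7 had a residual SD above 0.76, the 95th percentile of all genes.

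Members and gene lists were chosen with earlier results of these data known. Named genes are all members, Itpr2, genes of the related lists (some of which are not reported here), the brightest of the acute phase, monocyte and Kupffer lists and the 10 genes nearest in profile. Epx, Mki67, Acta1, Mansc4, Pf4, Ear2, Alb, Epor, Tat and the other acute phase genes were chosen after their values were seen. Alternatives were other scalings, background corrections, filters and probe rules, the slide and the replicate number as blocks, other variance settings, each array left out and, chosen after seeing the data, WT 1 and KO 3 left out and dim signals raised to the background floor.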

Additional observations from a re-analysis of the deposited data

How the results depend on the processing

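No member passed the adjusted threshold in any of the 204 member values recomputed with other settings (9 members, within-slide values without a test included). The median change of the members stayed positive under 15 of 15 settings other than single omissions and within-slide values, with 0.27 (array weights) as the lowest, and ran from -0.091 to 1.93 when 1 array was left out. The granule precursor median ran from 0.074 to 1.49 and, with 1 array left out, from -0.22 to 2.16, and the mature median from 0.074 to 1.08 and from 0.057 to 0.49. Within slide 1 the medians were 2.52, 3.08 and 1.11 for all members, granule precursor and mature genes. Normexp correction, run on the median spot signal in place of the mean, gave the mature median of 1.08. That correction also gave 4794 genes an unadjusted p under 0.05 in the higher direction, and the cause was not tested. The count of genes past the threshold, 1 over all genes, was 0 with normexp, with the filter on all 6 arrays, with the replicate block, with dim signals raised to the floor and without WT 1 and KO 3, and ran from 0 to 2 when 1 array was left out.

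Single genes changed sign as follows. Ngp had -0.029 with the slide as a random block, -0.64 with array weights and -0.81 without WT 1 and KO 3. Within slide 2 the changes were -0.16 for S100a8, -2.02 for Ngp, -0.82 for Camp, -1.06 for Ltf, -0.53 for Mmp8, -0.15 for Retnlg and -0.26 for Cxcr2. Csf3r had -0.67 with normexp. With 1 array left out, Ngp ran from -1.23 to 2.29, Camp from -0.13 to 2.03, Ltf from -0.32 to 2.41, Mmp8 from -0.091 to 1.88 and Cxcr2 from -0.37 to 0.49, each lowest without KO 1 and highest without KO 2. The filter on all 6 arrays left 6 members, since Ngp, Ltf and Mmp8 were dim on KO 2.

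With the replicate number as a block the smallest adjusted p of a member by limma was 0.769. Same-numbered arrays had correlations of -0.19, 0.042 and -0.28 in their deviations from the genotype means, with numbers as in the scanner tables. These values gave no sign of pairing by number, which so few arrays cannot exclude. Probes near background, such as Ngp, Ltf, Mmp8 and Mmp9 on KO 2, limit what can be said of low levels.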
